A study of Mus musculus with 6 samples.

Results

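Genes of the interleukin and tumor necrosis factor (TNF) families were compared in mouse hippocampus. The comparison was between ribosome-bound RNA of Cx3cr1-lineage cells and RNA of the tissue lysate supernatant they were drawn from. Members were the protein-coding genes whose symbol begins with Il, Tnfrsf or Tnfsf followed by a digit, or is Tnf itself, with Il34 left out. The table held 48 such genes among its 13812 protein-coding genes and 15388 genes in all: 35 receptors or receptor chains, 11 ligands, 1 soluble antagonist (Il18bp) and 1 enzyme named for its induction by a cytokine (Il4i1). Tnf, Il1b, Il1rn and further symbols of these families were not analysed here. All animals carried the same alleles, Cx3cr1-cre/ERT2 and NuTRAP, and all had received tamoxifen, which starts recombination. The study used males and females about 3 months old, and the sex of each of these animals is not given here. For this line the paper describes collecting brain some weeks after tamoxifen, so that short-lived monocytes of the blood would not be tagged. NuTRAP puts GFP on the ribosomes of recombined cells, and the Cx3cr1 promoter that drives Cre is active in microglia and also in border macrophages and some blood monocytes. Tissue lysate of each animal gave 1 Input library, kept before the pulldown, and 1 Positive library, bound by antibody to GFP, in animals 201, 207 and 208. No Cre-negative or untreated animals were part of the comparison, and a pulldown from tissue without GFP was not analysed here.

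Interleukins and TNF family ligands are signals that cells secrete or carry on their surface, and in brain they pass between microglia, astrocytes, oligodendrocytes, neurons and the vessel wall. Most interleukin receptors pair a chain that binds 1 ligand with a chain shared by several receptors, and the pair hands the signal to kinases of the Jak family or, for the IL-1 and IL-17 families, to adaptor proteins. TNF receptors gather as trimers and recruit TRAF adaptors or, in the death receptors, proteins that lead to caspase activation. Which cell can answer a cytokine therefore depends on which chains it makes.

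Summed over the 15388 genes of the table, the 6 libraries held 14879734 to 17757918 counted reads each. Reads carried no molecular identifiers, so limits set by read number cover counting error only, and p-values measure the spread between 3 animals. Values below are scaled reads, that is, reads after division by the library's size factor. All 10 microglial markers were higher in Positive (log2 fold change 4.16 to 4.80), and their summed level was 5490 to 5964 scaled reads in Input and 111340 to 164080 in Positive. All 8 border macrophage markers were also higher (3.16 to 4.48, sums of 520 to 586 and 6042 to 11817), as were all 10 endothelial markers (1.38 to 2.26, sums of 1831 to 2206 and 4900 to 9929). For other blood cells, only 2 of 6 B cell, 2 of 8 T or NK cell, 1 of 5 monocyte and none of 6 neutrophil markers were among the genes analysed. Of these, Cd79b and Ighm (B cells), Cd4 (T cells) and Ly6c2 (monocytes, at most 24.6 scaled reads in Positive) were called higher. The T cell kinase Lck passed through Input alone and was not called, and its Positive values all lay below its Input values. All 10 oligodendrocyte markers, all 6 of their precursors and all 5 erythroid markers were lower, with 4 of 10 astrocyte markers lower and 1 higher and 3 of 10 neuronal markers higher. In the mural list 1 of 10 was higher, in the choroid plexus and ependyma list 3 of 6 were lower, and in the fibroblast list 4 of 5 were lower. The part of each of these cell types in the values below was not tested, and in bulk RNA a change in the number of cells cannot be told apart from a change in RNA per cell. The Positive library of animal 208 had the lowest summed microglial level, and its median endothelial log2 ratio was 1.17 against 2.20 and 2.15 in animals 201 and 207.

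Of the 48 genes, 47 had over 20 scaled reads throughout Input, throughout Positive or in both, the filter set for testing, and Il1rapl2, a neuronal receptor related to the IL-1 receptors, did not. By edgeR's quasi-likelihood test (adjusted p under 0.05 over all 15344 genes tested), 32 of the 47 differed between fractions, where 46.0% of all genes did. Higher in Positive were 27 (57.4%), where 24.0% of all genes were higher, and lower were 5 (10.6%), where 22.0% of all genes were lower. A rise of over 5-fold was called in 17 (36.2%), against 3.75% of all genes. The median log2 fold change was 1.27 over the 47 and -0.01 over all genes tested. In 27 of the 47 every Positive library lay above every Input library, which 28.9% of all genes did, and in 6 every Positive library lay below, which 27.6% of all genes did. The filter bears on these counts. Through Positive alone 15 of the 47 passed it (31.9%, against 3.38% of all genes), and 14 of the 27 higher genes were among them, while Il1f9 passed through Input alone. A gene that passed only through the fraction where it is high had to differ to some degree, so the counts describe the genes tested and nothing wider. Among the 24 members whose mean over the libraries was 100 scaled reads or more, 14 were higher, where 24.0% of such genes were, and 2 were lower, where 23.3% were. This limit too can be passed through a high Positive level. Among the 14, Il21r had a mean of 30.5 in Input and 548 in Positive, and Tnfrsf13b 14.8 and 360. The count of lower members rested on single libraries, with 3 without the Input library of animal 201, 3 without that of animal 208 and 2 without the Positive library of animal 207.

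**Figure D1:**
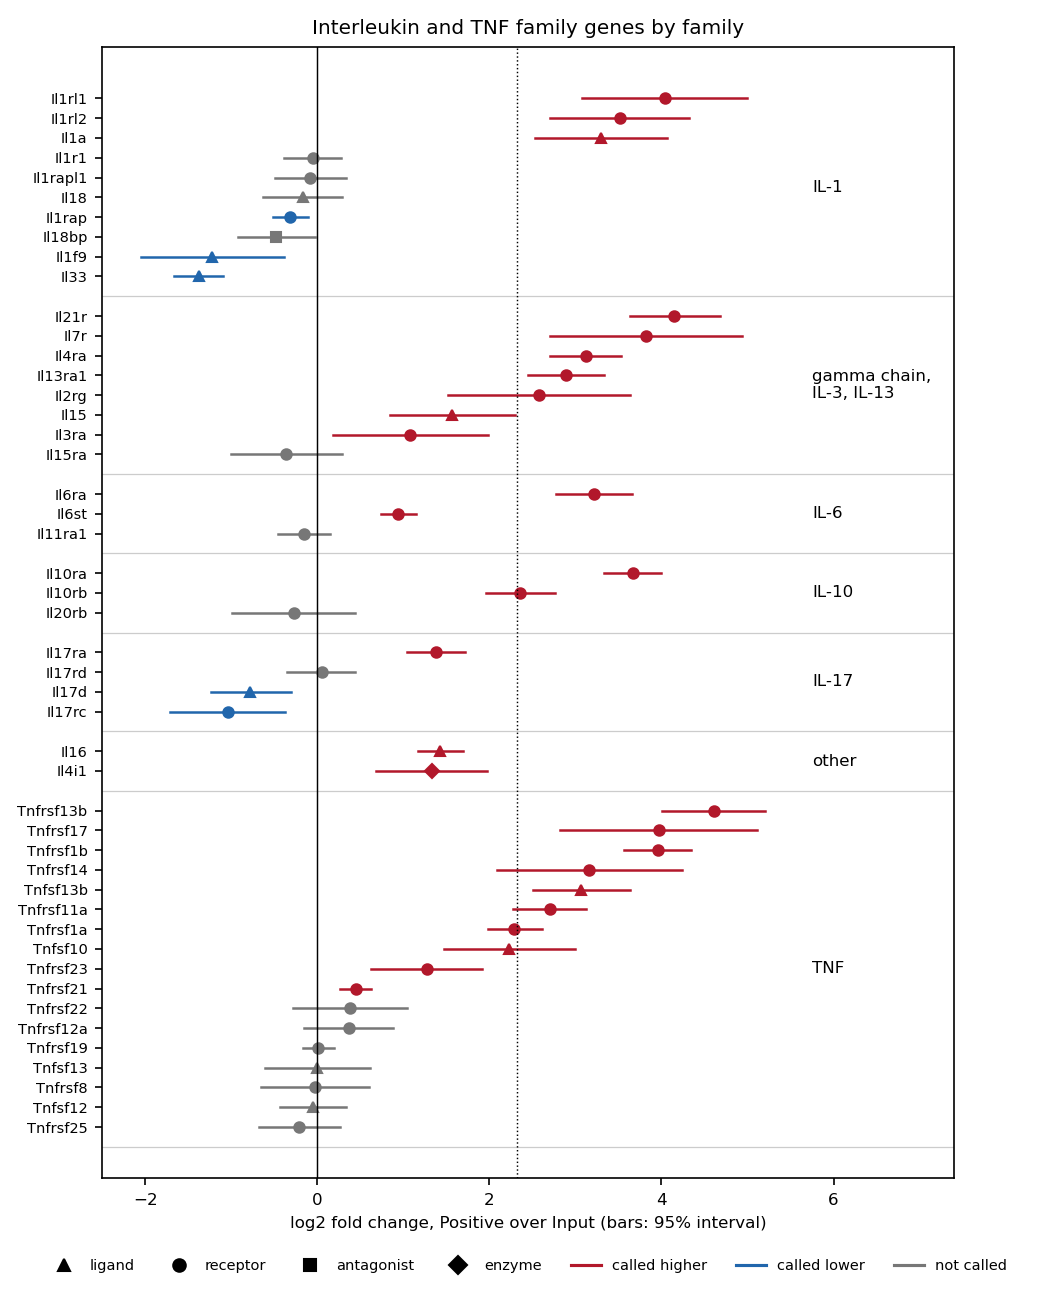
Log2 fold change of Positive over Input (x axis) for the 47 genes tested, grouped by family, with 95% intervals that are not adjusted for the number of genes. Red is called higher, blue called lower and gray not called. The dotted line marks 5-fold. In the TNF family 10 of 17 genes were higher and none lower, and the IL-1 family split into 3 higher and 3 lower. Of all genes 24.0% were higher and 22.0% lower.

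Counts by role and by family are to be read against the 24.0% of all genes higher and the 22.0% lower. By role, 21 of 34 receptors tested were higher and 2 lower, and 5 of 11 ligands were higher and 3 lower. The share of ligands lower (27.3%) was near that of all genes. All higher ligands but Il16 had passed the filter through Positive alone. So had the higher receptors Il1rl1, Il1rl2, Il21r, Il2rg, Il7r, Tnfrsf13b, Tnfrsf14, Tnfrsf17 and Tnfrsf23. By family the counts were as follows. In the group of the common gamma chain and the IL-3 and IL-13 receptors 7 of 8 genes were higher and none lower, in the TNF family 10 of 17 were higher and none lower, and in the IL-10 and IL-6 families 2 of 3 were higher in each. In the IL-1 family 3 of 10 were higher and 3 lower, and in the IL-17 family 1 of 4 was higher and 2 lower, so that the share higher in the IL-1 and IL-17 families was near that of all genes. All higher IL-1 family genes, and Il15, Il21r, Il2rg and Il7r of the gamma chain group, were among those that passed through Positive alone. Differences between roles or between families were not tested.

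Levels of different genes were compared as mean scaled reads per kb of exon. In Input the order began with Tnfrsf21 (428 ± 23.2, SD, n = 3), the death receptor DR6, followed by Il33 (234 ± 14.6), Il18 (178 ± 23.3), Tnfrsf19 (163 ± 6.99), Tnfrsf25 (122 ± 8.87) and Il6st (121 ± 6.14). In Positive it began with Tnfrsf21 (583 ± 43.0), followed by Il10ra (370 ± 64.5), Tnfrsf1a (349 ± 72.3), Tnfrsf1b (319 ± 67.9), Il6st (233 ± 29.1) and Il6ra (196 ± 47.4). Tnfrsf21 thus led in both fractions, above the next gene by more than the SD in each. Il10ra, Tnfrsf1a and Tnfrsf1b followed each other in Positive within 1 SD, while Il6st and Il6ra lay apart by more than the SD of Il6st and less than that of Il6ra. Il10ra was 15th and Tnfrsf1b 21st in Input, whereas Il33 moved from 2nd in Input to 16th in Positive.

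**Figure D2:**
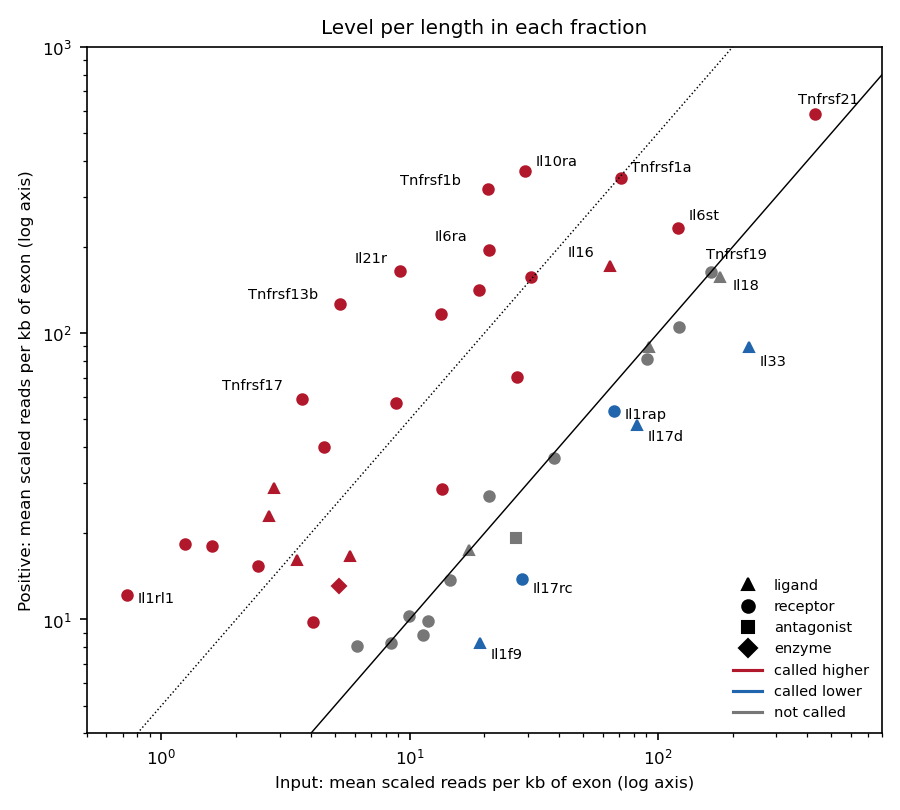
Mean level of each gene tested in Input (x axis) and Positive (y axis), in scaled reads per kb of exon on log axes, n = 3 per fraction. The solid line marks equal levels and the dotted line 5-fold. Tnfrsf21 is highest on both axes, Il10ra, Tnfrsf1a and Tnfrsf1b lie between 319 and 370 in Positive, and Il33 is the highest gene called lower.

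The IL-1 family ligands went both ways. Il1a (chromosome 2, 129299610 to 129309972, minus strand, mm10) encodes IL-1 alpha, an alarm cytokine stored in cells and released on damage. It had 3.0, 7.5 and 6.3 scaled reads in the Input libraries of animals 201, 207 and 208 and 49.3, 68.7 and 51.7 in their Positive libraries. Positive was far above Input in every animal, and the log2 fold change was 3.30 ± 0.36 (SE, edgeR adjusted p = 8.26e-06). Il33 (chromosome 19, 29925114 to 29960718, plus strand) encodes a nuclear alarm cytokine that in brain is known mainly from oligodendrocytes and astrocytes. It had 717.5, 633.5 and 672.7 scaled reads in Input and 288.1, 280.1 and 207.9 in Positive. All Positive values lay below all Input values, and the log2 fold change was -1.38 ± 0.13 (SE, edgeR adjusted p = 2.25e-06), 38.4% of the Input level. Il33 was the member with the lowest fold change.

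Il1f9, which encodes IL-36 gamma, was low in both fractions, with 21.5, 24.3 and 49.6 scaled reads in Input and 14.4, 11.1 and 15.5 in Positive. The fractions did not overlap, and its log2 fold change was -1.22 ± 0.38 (SE, edgeR adjusted p = 0.0204). Much of that gap came from 1 Input value, since without the Input library of animal 208 the adjusted p was 0.133 and the log2 fold change -0.74, and without the Positive library of animal 207 the adjusted p was 0.0699. Il18 is matured by caspase-1 and raises interferon gamma in lymphocytes. Its level was 195.4, 155.7 and 199.0 scaled reads in Input and 164.5, 211.6 and 109.8 in Positive. The Positive libraries held both its highest and its lowest value, and Il18 was not called (log2 fold change -0.17, 95% interval -0.63 to 0.29). Il18bp encodes a soluble protein that traps IL-18. It had 81.0, 91.2 and 72.4 scaled reads in Input against 63.2, 57.2 and 54.8 in Positive. Every Positive value was below every Input value, but the adjusted p was 0.077 (edgeR), and 0.0438 with scaling by total counts.

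**Figure D3:**
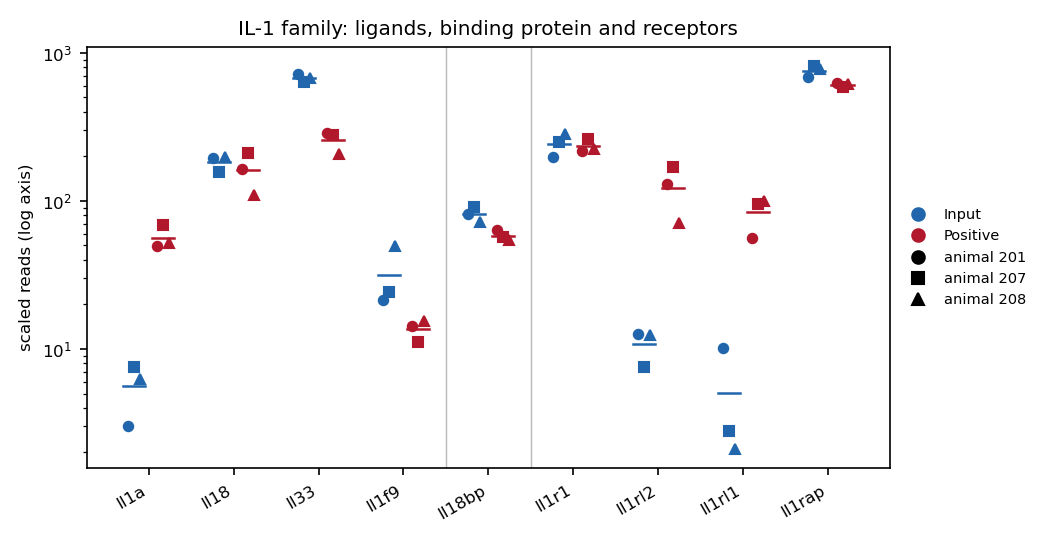
Scaled reads (log y axis) of 9 IL-1 family genes in each library, blue for Input and red for Positive, with 1 symbol per animal and a line at the mean of 3. Ligands are on the left, the IL-18 binding protein in the middle and receptors on the right. The fractions are far apart for Il1a, Il1rl2 and Il1rl1, and mixed for Il18 and Il1r1.

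The receptors of these ligands also differed from each other. Il1rl1 encodes ST2, the receptor of IL-33. It had 10.2, 2.8 and 2.1 scaled reads in Input and 56.4, 95.4 and 100.4 in Positive, so that its Input was close to nothing while its Positive level was modest. The log2 fold change was 4.04 ± 0.44 (SE, edgeR adjusted p = 9.4e-06), from 3.70 without the Input library of animal 208 to 5.02 without that of animal 201. Il1rl2, the receptor of the IL-36 cytokines, had 12.6, 7.5 and 12.5 scaled reads in Input and 130.1, 168.6 and 70.4 in Positive. The lowest Positive value was still several times the highest Input value, and the log2 fold change was 3.52 ± 0.37 (SE, edgeR adjusted p = 6.68e-06). Il1r1, the signaling receptor of IL-1 alpha and IL-1 beta, had 197.6, 249.8 and 281.7 scaled reads in Input and 215.7, 262.2 and 224.6 in Positive. Its fractions overlapped and its log2 fold change was -0.05 (95% interval -0.39 to 0.28).

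Il1rap encodes the accessory chain that IL-1, IL-33 and IL-36 receptors share. It had 686.9, 813.4 and 775.3 scaled reads in Input and 626.2, 585.2 and 619.2 in Positive. Positive lay below Input by a small margin in every animal, with a log2 fold change of -0.32 ± 0.09 (SE, edgeR adjusted p = 0.0156). That call was lost without the Input library of animal 207 (adjusted p = 0.0815), the Input library of animal 208 (0.062) or the Positive library of animal 207 (0.0541). Il1rapl1, a synaptic relative of the receptor chains, was not called (log2 fold change -0.08). For IL-33 and for IL-36 gamma the ligand gene was lower and the specific receptor gene higher in Positive, with the shared chain slightly lower. For IL-1 alpha the ligand gene was higher and the receptor gene not called. Il1a, Il1rl1 and Il1rl2 had passed the filter through Positive alone and Il1f9 through Input alone, so the filter partly set their directions. The calls of Il1f9 and Il1rap were also lost without some single libraries.

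Il1r1, Il1rl2 and Il1rl1 lie next to each other on chromosome 1, from 40225080 to 40317257, 40324610 to 40367562 and 40429570 to 40465415, all on the plus strand. The log2 ratio of Positive over Input of Il1rl2 exceeded that of Il1r1 by 3.14, 4.25 and 2.72 in animals 201, 207 and 208, and that of Il1rl1 exceeded it by 2.24, 4.59 and 5.36. The neighbors were compared after their values were seen, and the differences are given without a test.

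Among receptors that use the common gamma chain or belong to the IL-3 and IL-13 systems, 6 of 7 were higher, where 24.0% of all genes were. Among the 6, Il21r, Il2rg and Il7r had passed the filter through Positive alone. Il21r, the chain that binds IL-21, had 29.5, 43.1 and 18.8 scaled reads in Input and 539.7, 669.6 and 434.6 in Positive. It was the highest of the group by fold, with a log2 fold change of 4.15 ± 0.24 (SE, edgeR adjusted p = 2.25e-08). Il7r, the IL-7 receptor chain best known from lymphocytes, had 6.1, 11.2 and 0.0 scaled reads in Input and 82.1, 115.7 and 57.9 in Positive. With 1 Input library at 0 its fold is loosely set: the log2 fold change was 3.82 ± 0.52 (SE, edgeR adjusted p = 6.32e-05), 3.27 without the Input library of animal 208 and 4.74 without that of animal 207. Il4ra, the chain that binds IL-4 and also serves IL-13, had 75.2, 91.8 and 74.2 scaled reads in Input and 727.5, 860.9 and 518.4 in Positive. Il13ra1, its partner for IL-13, had 79.2, 78.7 and 54.3 in Input and 503.4, 667.2 and 408.5 in Positive. Both chains of the IL-13 receptor were thus clearly apart between fractions, by 3.12 ± 0.19 for Il4ra (SE, edgeR adjusted p = 3.13e-08) and 2.89 ± 0.20 for Il13ra1 (SE, edgeR adjusted p = 1.38e-07) on the log2 scale. Il4ra (125552120 to 125579474) and Il21r (125603429 to 125633570) are neighbors on the plus strand of chromosome 7.

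The common gamma chain itself, Il2rg, was called with a log2 fold change of 2.58 ± 0.49 (SE, edgeR adjusted p = 0.000893), from 2.22 without the Input library of animal 207 to 3.37 without that of animal 208. Il2rg had at most 11.2 scaled reads in Input, and its log2 ratio was 0.87 in animal 208 against 3.11 and 3.75 in animals 201 and 207. It overlaps Gm20489 on the same strand, so its reads are uncertain. Il3ra, the chain that binds IL-3, was near the threshold, with a log2 fold change of 1.08 ± 0.42 (SE, edgeR adjusted p = 0.0492) and fractions that overlapped. Its call was lost without the Input libraries of animals 201 (0.181) or 208 (0.123). It was also lost without the Positive library of animal 207 (0.338, with a log2 fold change of 0.48). The same held with scaling by total counts (0.0641) and in limma-voom (0.071). With an animal term in the fit Il3ra kept its call, at 1.05 ± 0.24 (SE, edgeR adjusted p = 0.002). Its log2 ratios were 0.95, 1.21 and 0.87 in animals 201, 207 and 208. Il15 encodes a ligand that is handed to neighboring cells bound to its own receptor chain. It had 15.6, 10.8 and 12.5 scaled reads in Input and 42.3, 46.3 and 24.8 in Positive. The fractions did not overlap, and the log2 fold change was 1.57 ± 0.34 (SE, edgeR adjusted p = 0.00218). Il15ra, that receptor chain, had 52.4, 58.5 and 39.3 scaled reads in Input and 51.3, 42.2 and 23.8 in Positive and was not called (log2 fold change -0.36, 95% interval -1.0 to 0.29). It was the gene of the group that did not move with the others.

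IL-6 acts through Il6ra, which binds it, and Il6st, the signal transducer gp130 that many cytokines share. Il6ra (chromosome 3, 89864059 to 89913196, minus strand) had 125.0, 231.0 and 187.1 scaled reads in Input and 1581, 2151 and 1356 in Positive. Positive was well above Input throughout, and the log2 fold change was 3.22 ± 0.20 (SE, edgeR adjusted p = 4.58e-08), 9.33-fold. Il6st started higher and rose less, from 1389, 1266 and 1379 scaled reads in Input to 2776, 2775 and 2216 in Positive. Its log2 fold change was 0.94 ± 0.10 (SE, edgeR adjusted p = 4.86e-06), 1.92-fold. The log2 ratio of Il6ra exceeded that of Il6st by 2.65, 2.08 and 2.17 in the 3 animals. Il11ra1, the chain that binds IL-11 beside gp130, had 434.3, 445.2 and 334.4 scaled reads in Input and 373.9, 405.7 and 311.6 in Positive. Its fractions overlapped (log2 fold change -0.15, 95% interval -0.46 to 0.15), and its reads are uncertain because near-identical copies exist and Galt overlaps it on the same strand.

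The IL-10 receptor showed a like arrangement. Il10ra (chromosome 9, 45253837 to 45269149, minus strand), the chain that binds IL-10, had 120.9, 89.7 and 95.1 scaled reads in Input and 1298, 1519 and 1067 in Positive. Every Positive library was roughly an order of magnitude above its Input, and the log2 fold change was 3.67 ± 0.15 (SE, edgeR adjusted p = 1.05e-09), 12.7-fold. Il10rb, a chain that the IL-10, IL-22 and interferon lambda receptors share, had 130.4, 118.2 and 102.6 scaled reads in Input and 583.6, 761.4 and 454.1 in Positive. It also rose in every animal but by less, with a log2 fold change of 2.36 ± 0.18 (SE, edgeR adjusted p = 3.68e-07), 5.13-fold. The log2 ratio of Il10ra exceeded that of Il10rb by 1.26, 1.39 and 1.34 in the 3 animals. Il10rb overlaps Gm21970 on the same strand, and its reads are uncertain to that extent. Il20rb, a chain of the IL-20 receptors, had 61.8, 36.5 and 51.8 scaled reads in Input and 23.6, 40.8 and 60 in Positive, with no direction that the animals shared (log2 fold change -0.27, 95% interval -0.99 to 0.44).

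**Figure D4:**
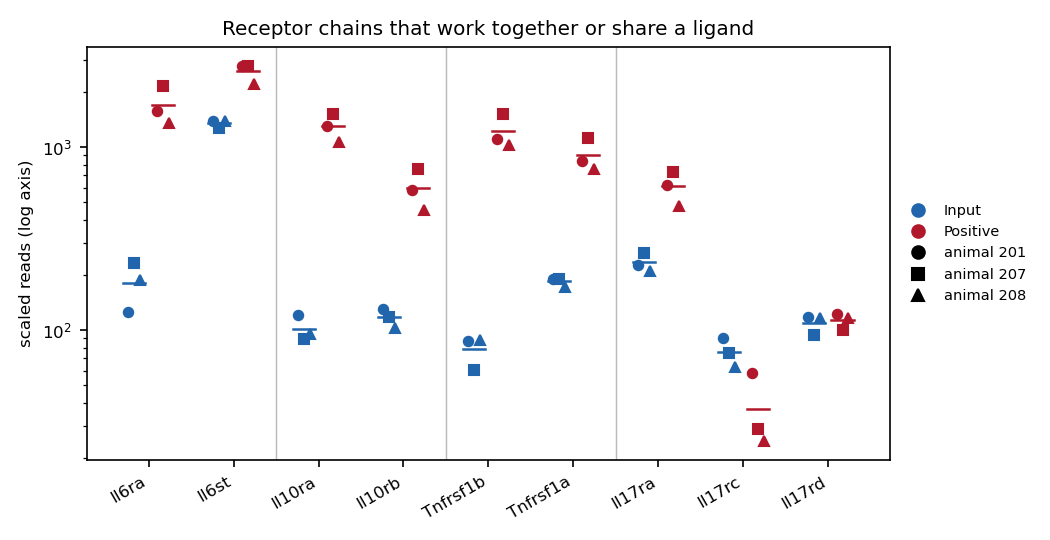
Scaled reads (log y axis) in each library of receptor chains that work together or share a ligand: the IL-6 receptor (Il6ra, Il6st), the IL-10 receptor (Il10ra, Il10rb), the TNF receptors (Tnfrsf1b, Tnfrsf1a) and IL-17 receptor chains. Blue is Input, red Positive, each symbol 1 animal and each line the mean of 3. The gap between fractions is wider for Il6ra than for Il6st and for Il10ra than for Il10rb, and Il17rc is the only gene shown with Positive below Input in every animal.

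In the IL-17 family, 2 chains of the same receptor went opposite ways. Il17ra, the chain common to IL-17 receptors, had 227.3, 264.3 and 210.3 scaled reads in Input and 616.3, 733.6 and 477.1 in Positive. It was higher in every animal, with a log2 fold change of 1.38 ± 0.16 (SE, edgeR adjusted p = 1.28e-05). Il17rc, which joins Il17ra to bind IL-17A and IL-17F, had 90.1, 75.1 and 62.7 scaled reads in Input and 57.9, 28.7 and 24.8 in Positive. It was lower in every animal, with a log2 fold change of -1.04 ± 0.31 (SE, edgeR adjusted p = 0.0149), 48.6% of the Input level. The log2 ratio of Il17ra exceeded that of Il17rc by 2.06, 2.83 and 2.48. Il17rd, a family member that also modulates growth factor signaling, had 117.7, 93.6 and 116.3 scaled reads in Input and 122.1, 100.3 and 115.9 in Positive, which is level within the spread (95% interval -0.35 to 0.44). Il17d encodes a ligand known from neural and other non-immune tissue. Its level was 126.8, 82.3 and 105.6 scaled reads in Input and 56.3, 64.9 and 61.9 in Positive, lower in all 3 animals, with a log2 fold change of -0.78 ± 0.21 (SE, edgeR adjusted p = 0.0103). The call of Il17rc was lost without the Input library of animal 201 (adjusted p = 0.0659) or the Positive library of animal 207 (0.0598), and that of Il17d without the Input library of animal 201 (0.0543).

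Genes named for interleukins outside these families were both higher. Il16 encodes the precursor of a chemoattractant that binds CD4. It had 495.1, 423.0 and 591.9 scaled reads in Input and 1220, 1480 and 1363 in Positive. No libraries overlapped, and the log2 fold change was 1.43 ± 0.12 (SE, edgeR adjusted p = 7.18e-07). Il4i1, an amino acid oxidase rather than a cytokine, had 13.2, 24.9 and 25.3 scaled reads in Input and 62.4, 46.6 and 51.7 in Positive. Its log2 fold change was 1.33 ± 0.30 (SE, edgeR adjusted p = 0.00286), and its reads are uncertain because Nup62 overlaps it on the same strand. Cd4 had 10.2, 1.9 and 2.1 scaled reads in Input and 67.7, 67.6 and 47.6 in Positive. Lck, which T cells express, had 21.5, 22.5 and 24.7 in Input and 9.0, 15.9 and 19.7 in Positive. Cd4 had passed the filter through Positive alone and Lck through Input alone.

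Of 4 TNF family ligands, 2 were higher, where 24.0% of all genes were, and both had passed the filter through Positive alone. Tnfsf13b (chromosome 8, 10006467 to 10039072, plus strand) encodes BAFF, a survival factor of B cells. It had 20.7, 17.4 and 18 scaled reads in Input and 146.2, 205.7 and 121.1 in Positive. The Input values were close together and the Positive values all far above them, with a log2 fold change of 3.07 ± 0.26 (SE, edgeR adjusted p = 8.69e-07). Tnfsf10 encodes TRAIL, a ligand of death receptors. It had 12.5, 15.3 and 27.7 scaled reads in Input and 99.5, 103.8 and 52.1 in Positive. The smallest gap was in animal 208, and the log2 fold change was 2.23 ± 0.35 (SE, edgeR adjusted p = 0.000221). Tnfsf13, which encodes APRIL, the closest relative of BAFF, had 26.5, 29.8 and 29.1 scaled reads in Input and 23.9, 36.7 and 25.1 in Positive. The fractions overlapped, with a 95% interval of -0.61 to 0.61 for the log2 fold change. The log2 ratio of Tnfsf13b exceeded that of Tnfsf13 by 2.91, 3.20 and 2.89 in the 3 animals. Tnfsf12, the ligand TWEAK, was not called (log2 fold change -0.05, 95% interval -0.43 to 0.33). Tnfsf12 and Tnfsf13 adjoin on chromosome 11 and share exons with the read-through gene Tnfsfm13 on the same strand, so the reads of both are uncertain.

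Of 13 TNF receptors, 8 were higher and none lower, where 24.0% of all genes were higher and 22.0% lower. Among the 8, Tnfrsf13b, Tnfrsf14, Tnfrsf17 and Tnfrsf23 had passed the filter through Positive alone. Tnfrsf13b (chromosome 11, 61126755 to 61149372, plus strand) encodes TACI, a receptor of BAFF and APRIL. It had 18.3, 9.4 and 16.7 scaled reads in Input and 347.9, 464.5 and 269.0 in Positive. This was the largest fold of any member, 24.4-fold, with a log2 fold change of 4.61 ± 0.28 (SE, edgeR adjusted p = 2.69e-08). Tnfrsf17 encodes BCMA, the other receptor that BAFF and APRIL share, known from plasma cells. It had 0.0, 3.7 and 5.2 scaled reads in Input and 37.7, 67.5 and 39.0 in Positive. Input was at or near nothing, which leaves the fold loosely set: the log2 fold change was 3.97 ± 0.53 (SE, edgeR adjusted p = 5.64e-05), 3.41 without the Input library of animal 201 and 4.56 without that of animal 208. Beside these receptors stand the B cell markers analysed, of which Cd79b had 6.1, 1.9 and 4.2 scaled reads in Input and 82.1, 72.3 and 39.3 in Positive, with a log2 fold change of 3.97. Ighm had 146.3, 186.6 and 169.3 in Input and 1499, 1867 and 1309 in Positive, with a log2 fold change of 3.22. Cd79b, like Tnfrsf13b and Tnfrsf17, had passed the filter through Positive alone. The other 4 genes of the B cell list were not analysed here, and the part of B cells in the values of Tnfrsf13b and Tnfrsf17 was not tested.

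The receptors of TNF itself were both higher, by unequal amounts. Tnfrsf1b (chromosome 4, 145213463 to 145246870, minus strand) encodes TNFR2, which favors membrane-bound TNF and lacks a death domain. It had 87.4, 60.5 and 87.8 scaled reads in Input and 1107, 1513 and 1031 in Positive. Tnfrsf1a (chromosome 6, 125349362 to 125362484, plus strand) encodes TNFR1, the death domain receptor present on most cells. It had 191.1, 190.1 and 171.5 scaled reads in Input and 838.3, 1115 and 757.5 in Positive. In Input Tnfrsf1a was the higher of the pair per length (71.1 ± 4.24 against 20.6 ± 4.10 scaled reads per kb, SD, n = 3), while in Positive their levels lay within 1 SD of each other. The log2 fold change was 3.96 ± 0.18 for Tnfrsf1b (SE, edgeR adjusted p = 2e-09) and 2.29 ± 0.15 for Tnfrsf1a (SE, edgeR adjusted p = 4.72e-08), and the log2 ratio of Tnfrsf1b exceeded that of Tnfrsf1a by 1.52, 2.08 and 1.40. Tnfrsf8, which encodes CD30 and lies beside Tnfrsf1b on the same strand (145267137 to 145315164), had a log2 fold change of -0.03 (95% interval -0.65 to 0.60).

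Tnfrsf14 encodes HVEM, a receptor of LIGHT and BTLA. It had 11.6, 7.8 and 0.0 scaled reads in Input and 64.6, 62.4 and 45.5 in Positive. All Positive libraries were above all Input libraries, with a log2 fold change of 3.16 ± 0.50 (SE, edgeR adjusted p = 0.000216). With 1 Input library at 0 this fold too is loosely set, from 2.61 without the Input library of animal 208 to 3.83 without that of animal 201. Tnfrsf11a, which encodes RANK, the receptor that drives osteoclast formation, had a log2 fold change of 2.70 ± 0.20 (SE). Tnfrsf23, a mouse decoy receptor of TRAIL, was at 1.27 ± 0.30, and its neighbor and relative Tnfrsf22 on chromosome 7 was at 0.38 ± 0.30 and not called. Tnfrsf21 rose least of the genes called, by 0.45 ± 0.08 on the log2 scale (SE, edgeR adjusted p = 0.000715), from a high Input level. Tnfrsf19, which encodes TROY, had 753.6, 756.4 and 812.3 scaled reads in Input and 774.2, 774.8 and 785.0 in Positive. It was level between fractions, with a 95% interval of -0.17 to 0.19 for the log2 fold change. Tnfrsf12a, the receptor of TWEAK, was not called (log2 fold change 0.37, 95% interval -0.15 to 0.88), although its Positive values all lay above its Input values. Tnfrsf25, the death receptor DR3, was not called either (-0.21, 95% interval -0.68 to 0.26), and without the Positive library of animal 201 it was called lower (-0.51, edgeR adjusted p = 0.0472).

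Promoters of the members were searched for 3 short motifs. RefSeq promoters (build GRCm38.p6, 250 bases before to 50 bases after each start site) were matched by symbol for 42 of the 48 genes. The PU.1 motif GAGGAAGT was present in 1 of the 42 (Il4i1) and in 3.69% of all 27025 genes, and the NF-kappaB motif GGGANTTTC in 1 of the 42 (Il16) and in 1.29% of all genes, each searched on both strands. The interferon response motif GAAANNGAA, also searched on both strands, was present in 6 of the 42 (14.3%) and in 9.76% of all genes. No motif overlapped another in a member. The interferon response motif was present in 4 of the 23 matched genes called higher, namely Tnfrsf1b, Tnfsf13b, Tnfrsf14 and Tnfrsf17, and these stretches are shown because they belong to receptors and a ligand described above. Each is read 5′ to 3′ along the gene, in capitals where the motif or its reverse complement lies. Each ends at or before the base ahead of the RefSeq start site.
Tnfrsf1b: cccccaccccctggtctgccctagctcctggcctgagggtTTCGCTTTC
Tnfsf13b: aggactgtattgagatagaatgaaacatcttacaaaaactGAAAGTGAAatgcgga
Tnfrsf14: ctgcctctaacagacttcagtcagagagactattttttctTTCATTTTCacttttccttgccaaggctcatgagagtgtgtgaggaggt
Tnfrsf17: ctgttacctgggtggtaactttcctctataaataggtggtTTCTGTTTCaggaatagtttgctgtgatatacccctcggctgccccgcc
The Tnfrsf1b stretch covers chr4:145246871-145246919 (minus strand) with the motif at -9 to -1 from the start site, and the Tnfsf13b stretch chr8:10006577-10006632 (plus strand) with the motif at -16 to -8. The Tnfrsf14 stretch covers chr4:154928092-154928180 (minus strand) with the motif at -63 to -55, and the Tnfrsf17 stretch chr16:11313669-11313757 (plus strand) with the motif at -100 to -92. Start sites here are those of RefSeq. By the gene positions of the deposited table Tnfsf13b begins at 10006467 and Tnfrsf14, on the minus strand, at 154928563. By those positions the stretches of Tnfsf13b and Tnfrsf14 lie inside the genes. Tnfsf13b has the motif in forward orientation and the other genes in reverse. Il1rap, called lower, and Il15ra, not called, also held the motif. A match describes letters in a window and is no evidence of binding.

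The genes that act after these receptors were read from the same fit. Of 69 pathway genes tested, 37 were higher and 8 lower, where 24.0% of all genes were higher and 22.0% lower. Among the 37, Irak3, Sigirr, Ripk3, Casp1, Rhbdf2, Nlrp3, Ltb, Csf2rb, Clcf1 and Ebi3 had passed the filter through Positive alone. The filter thus partly set their direction. Ripk3 had at most 8.4 scaled reads in Input and Nlrp3 at most 12.9. Among 14 genes of IL-1 receptor and TIR signaling 7 were higher and none lower, with Irak4 (log2 fold change 2.42 ± 0.19, SE) and Myd88 (1.91 ± 0.16) at the top and Tab2 (0.54 ± 0.08) and Peli2 (0.51 ± 0.12) at the bottom of those called. Myd88 is the adaptor of the receptor complex and Irak4 the first kinase it recruits. Of 18 genes of TNF receptor signaling 10 were higher and 2 lower. Casp8, the initiator caspase of death receptors, had 36.6, 37.5 and 56.4 scaled reads in Input and 675.2, 745.0 and 489.5 in Positive, a log2 fold change of 3.87 ± 0.21 (SE). Ripk3, the kinase of necroptosis, followed with 2.84 ± 0.45, and the adaptors Traf4 (-1.13 ± 0.17) and Traf3 (-0.55 ± 0.09) were lower.

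Genes that process cytokines were mostly higher, 7 of 8, with none lower. Nlrp3 and Pycard, the sensor and adaptor of an inflammasome that activates caspase-1, had log2 fold changes of 4.32 ± 0.31 and 4.25 ± 0.18 (SE). The sheddases Adam17 and Adam10, which release TNF and several receptors from the cell surface, had 1.64 ± 0.13 and 0.91 ± 0.09. Of 13 cytokine receptor kinases and feedback genes 5 were higher and 4 lower, where 24.0% and 22.0% of all genes were. Ptpn6, the phosphatase SHP-1, was highest at 4.88 ± 0.16 and Jak3, the kinase that the gamma chain uses, next at 1.98 ± 0.19, while the feedback inhibitors Cish (-0.92 ± 0.22) and Socs2 (-0.49 ± 0.11) were lower. Of 5 TNF superfamily genes with other symbols Ltb (2.43 ± 0.41) and Ltbr (1.39 ± 0.19), lymphotoxin beta and its receptor, were higher and Ngfr (-0.84 ± 0.24) lower. Of 11 other shared chains and ligands 6 were higher and 1 lower, with Csf2rb (4.06 ± 0.23), the beta chain of the IL-3 receptor, and Ebi3 (3.18 ± 0.29), a subunit of IL-27, at the top, Crlf3 (0.83 ± 0.12) the smallest rise and Cntfr (-0.48 ± 0.10) the one fall. Csf2rb has a near-identical neighbor, Csf2rb2, and its reads are uncertain.

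The animals were alike in direction for most members. The log2 ratio of Positive over Input had the same sign in all 3 animals in 37 of the 47 genes tested. The share of all genes that did so was not counted. The 37 include genes that passed the filter through 1 fraction alone, for which 1 sign was the likelier. The median over the 47 was 1.14 in animal 201, 1.21 in animal 207 and 0.87 in animal 208. Without the Positive library of animal 208 the same 32 genes were called, and 19 instead of 17 rose by over 5-fold. Without the Positive library of animal 207 28 genes were called. Leaving out the Input library of animal 201 or that of animal 208 gave 29.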

How the data were processed

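Members and gene lists were chosen with earlier results of these data known. Directional poly(A) libraries were trimmed, aligned to mm10 and counted per gene by the authors in Strand NGS. The deposited raw columns are expected counts (estimated counts, not all whole), kept by the authors where at least 20 reads were found in every library of 1 fraction, a limit that held for all 15388 genes. Both mates of a pair may have been counted, and 64.7% to 69.3% of whole values under 60 were even. The deposited log2 columns, scaled by the authors with DESeq and centered on Input, served for the authors' size factors only.

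Expected counts were rounded and tested by quasi-likelihood in edgeR 4.0.16 under R 4.3.3 (RLE scaling, group only, as in the study's methods), adjusted by Benjamini-Hochberg over 15344 genes with over 20 scaled reads in every library of 1 fraction. The fit was tested on simulated data. Ratios per animal used a pseudocount of 1. The libraries were paired by the animal number of the labels. Deviations from the fraction means correlated between the libraries of 1 animal with Pearson's r of 0.271, 0.082 and 0.15. The alternatives were TMM, total count and the authors' scaling, no filter, a mean of at least 100 scaled reads, a replicate block, halved counts, DESeq2 1.42.0, limma-voom (limma 3.58.1), leaving out each library, and a pseudocount of 0.1. Gene positions are those of the deposited table (mm10), and exon lengths and overlaps came from GENCODE M21.

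Genes named with full values were, per family and role, the 4 called members with the largest fold change and the 1 with the smallest of all, plus Il1a, Il18, Il6ra, Il6st, Il10ra, Il10rb, Tnfrsf1a and Tnfrsf1b. Of pathway lists the 2 highest and 2 lowest called were named. Pairs of genes, Cd4, Lck, Cd79b and Ighm were chosen after their values were seen.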

Additional observations from a re-analysis of the deposited data

How the results depend on the processing

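Of 682 values of single members under the alternatives, 641 kept their direction and their side of the threshold, 13 lost a call, 2 gained one and 26 changed sign, the last all in genes that were not called. With a replicate block for the animal (paired fit) 32 members were called, all shared with the unpaired fit. A filter at a mean of 100 scaled reads, which tested 24 members, left 16 that differed, 14 higher, 2 lower and 9 over 5-fold, because fewer were tested. Leaving out 1 library gave 2 to 6 lower members. Signs changed with scaling by total counts for Il17rd (-0.03), Tnfrsf19 (-0.07) and Tnfsf13 (-0.07), with the authors' size factors for Tnfrsf19 (-0.009) and Tnfsf13 (-0.01), with the filter at 100 for Tnfrsf19 (-0.02), and for Tnfsf13 with the replicate block (-0.01) and limma-voom (-0.02). Leaving out 1 library gave log2 fold changes of -0.21 to 0.06 for Il1rapl1, -0.01 to 0.04 for Tnfrsf19, -0.24 to 0.12 for Tnfsf13, -0.06 to 0.13 for Il17rd, -0.24 to 0.12 for Tnfrsf8, -0.14 to 0.08 for Tnfsf12, -0.18 to 0.07 for Il1r1, -0.63 to 0.00057 for Il20rb, -0.42 to 0.04 for Il18 and -0.51 to 0.03 for Tnfrsf25. The cause was not tested. Depth limits the folds of Il7r, Tnfrsf14 and Tnfrsf17, each with 1 Input library at 0.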
